A study of Mus musculus with 6 samples.

Results

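The unfolded protein response and the integrated stress response were described in mouse liver through 34 genes, listed by name for their known part in these pathways. Their probes were the non-control probes whose accession belongs to 1 of these genes in RefSeq, which gave 39 probes for 34 of the 20284 named genes on the array. Of the 34 genes, 29 had 1 probe and 5 had 2 probes, and all 39 probes passed the filter on dim signals. Agilent arrays with 1 colour measured the liver RNA of 3 Gα12 KO mice and 3 WT mice. The Gα12 KO mice lack the α subunit of heterotrimeric G12, a protein encoded by Gna12 that relays signals from cell surface receptors. Mice of both groups were males of 8 weeks on a mixed C57BL/6 and 129/Sv background, given as 95% C57BL/6, and were kept on chow and fasted overnight before the liver was taken. The labels do not say how the Gna12 allele was made. The comparison asks how liver gene expression differs in the absence of Gα12. Levels are log2 signals minus the array's 75th percentile, differences are Gα12 KO minus WT on that log2 scale, and values of a group are given for replicates 1, 2 and 3 in that order. The labels describe 3 animals per group, and the number of arrays limits the precision.

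Secreted and membrane proteins are folded in the endoplasmic reticulum (ER), and hepatocytes, which make most plasma proteins, carry a heavy load of them. When unfolded proteins build up, the sensors IRE1α, ATF6 and PERK act through the transcription factors XBP1, ATF6 and ATF4 to raise chaperones, ER-associated degradation (ERAD) and amino acid supply. PERK shares its substrate, the translation factor eIF2α, with kinases that sense amino acid shortage, haem and viral RNA, and this shared arm is the integrated stress response. Much of the control lies in splicing, cleavage and translation, which array signals do not show. In bulk liver, fewer cells of a type and less RNA per cell cannot be told apart.

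The arrays of the WT livers were not alike, and this touches every result below. WT replicates 1 and 2 correlated with the Gα12 KO arrays at r = 0.869 to 0.930 across 23132 probes, whereas WT replicate 3 did so at 0.966 to 0.982. The 7 probes of Gapdh, a transcript often used to judge RNA quality, spanned 4.36 to 4.87 log2 units on the Gα12 KO arrays, against 9.58, 7.79 and 4.01 on WT replicates 1, 2 and 3. With this spread as a covariate limma called 0 of the 34 genes, as it did without it. WT replicate 3 is given apart for the 34 genes together and for each role. Gna12 itself had 1 probe, at -4.91, -4.62 and -3.47 in Gα12 KO livers, against -3.48, -4.55 and -0.89 in WT livers. It was well above background on WT replicate 3 alone, so it says little about the labels. As it did not pass the filter, its difference of -1.36 came from the fit without the filter (limma adjusted p = 0.317). Each genotype filled its own row of the slide, and effects of the row and of the genotype cannot be told apart. All 8 hepatocyte markers listed, among them Alb and Ttr, were well above background on every array. Summed linear levels of the macrophage markers were 37.2 to 45.0 on Gα12 KO arrays, against 70.3, 64.1 and 35.0 on WT replicates 1, 2 and 3. Those of the stellate cell markers were 68.0 to 81.1 on Gα12 KO arrays, against 150.6, 135.9 and 89.3 on the WT arrays. The plasma cell markers, from cells that use this response heavily, summed to 12.2 to 20.5 on Gα12 KO arrays. On WT replicates 1, 2 and 3 they summed to 5.3, 10.3 and 18.4, and Irf4 and Tnfrsf17 were not well above background on any array. The pancreatic acinar markers summed to 15.3, 9.5 and 9.5 on Gα12 KO arrays, against 14.0, 7.1 and 13.8 on WT replicates 1, 2 and 3. All 9 were well above background on at least 1 array, Cpa1, Cpb1 and Pnlip on WT replicate 1 alone. The part of these cells in the differences was not tested.

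Most of the ER chaperone promoters share a sequence that ATF6 is known to bind together with the factor NF-Y, the ER stress response element (ERSE). It was searched as CCAAT and CCACG with any 9 bases between them, on both strands from 250 bases before to 50 after each gene's start in RefSeq (GRCm38.p6), where 29 of the 34 genes had an entry. Atf6, Ppp1r15b, Hyou1, Manf and Derl1 had none. A match was found for 9 of the 29 genes (31.0%), 7 of 12 chaperone genes and 2 of 5 ERAD genes, against 37 of 27025 genes in all (0.137%). No sensor or ATF4 target promoter held it. The genes were listed for their known part in these pathways. These shares and those of the sites below therefore describe the genes and test nothing. The matches are printed to show how alike the stretches are in genes whose levels are described below, with the fixed letters in capitals and the spacer in lower case, read in the direction of the motif.
Hspa5 ERSE match at chr2:34772025-34772043, plus strand: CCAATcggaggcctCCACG
Hsp90b1 ERSE match at chr10:86705638-86705656, minus strand: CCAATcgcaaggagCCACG
Hsp90b1 ERSE match at chr10:86705533-86705551, plus strand: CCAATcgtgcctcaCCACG
Calr ERSE match at chr8:84847075-84847093, plus strand: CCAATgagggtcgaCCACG
Canx ERSE match at chr11:50325800-50325818, minus strand: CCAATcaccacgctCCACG
Pdia6 ERSE match at chr12:17266491-17266509, plus strand: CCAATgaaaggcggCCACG
Dnajc3 ERSE match at chr14:118937827-118937845, plus strand: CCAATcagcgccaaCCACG
Creld2 ERSE match at chr15:88819520-88819538, minus strand: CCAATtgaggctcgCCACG
Syvn1 ERSE match at chr19:6046532-6046550, plus strand: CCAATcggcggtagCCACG
Derl3 ERSE match at chr10:75893242-75893260, minus strand: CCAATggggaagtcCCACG

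A shorter form, ERSE-II, was searched as ATTGG and CCACG with any 1 base between them and found in Herpud1 and Dnajb11, 2 of the 29 genes (6.90%), against 12 genes in all (0.0444%). The XBP1 site TGACGTGG was in none of the 29, against 193 genes in all (0.714%), which says only that these letters are not in this window. The composite site of ATF4 and its C/EBP partners, TGATGNAA, was in 4 of the 29 genes (13.8%), against 1219 genes in all (4.51%). These 4 were Trib3, Asns and Chac1, which are 3 of the 6 ATF4 targets, and Herpud1. No matches overlapped each other in the 29 genes. The 250 bases before the start of 4 genes are printed, 5′ to 3′ in the direction of the gene with matches in capitals: Hspa5 and Hsp90b1 as chaperones with ERSE matches, Herpud1 as the gene with an ERSE-II and an ATF4 site match, and Asns as an ATF4 target.
Hspa5 upstream bases, chr2:34771840-34772089, plus strand: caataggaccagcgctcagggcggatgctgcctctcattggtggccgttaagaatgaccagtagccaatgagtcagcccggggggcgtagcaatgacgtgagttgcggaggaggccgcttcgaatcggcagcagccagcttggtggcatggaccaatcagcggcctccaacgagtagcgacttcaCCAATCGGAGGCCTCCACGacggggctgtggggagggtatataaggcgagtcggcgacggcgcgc
Hsp90b1 upstream bases, chr10:86705445-86705694, minus strand: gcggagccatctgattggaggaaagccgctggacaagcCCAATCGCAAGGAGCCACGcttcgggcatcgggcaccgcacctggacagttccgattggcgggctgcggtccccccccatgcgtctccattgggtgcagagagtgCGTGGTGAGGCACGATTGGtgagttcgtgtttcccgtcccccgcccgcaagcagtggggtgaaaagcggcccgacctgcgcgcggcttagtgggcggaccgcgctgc
Herpud1 upstream bases, chr8:94386179-94386428, plus strand: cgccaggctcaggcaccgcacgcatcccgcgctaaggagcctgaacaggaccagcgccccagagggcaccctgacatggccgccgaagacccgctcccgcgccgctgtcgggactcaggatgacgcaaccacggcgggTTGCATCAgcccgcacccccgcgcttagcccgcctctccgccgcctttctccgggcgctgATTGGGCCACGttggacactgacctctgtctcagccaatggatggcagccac
Asns upstream bases, chr6:7693210-7693459, minus strand: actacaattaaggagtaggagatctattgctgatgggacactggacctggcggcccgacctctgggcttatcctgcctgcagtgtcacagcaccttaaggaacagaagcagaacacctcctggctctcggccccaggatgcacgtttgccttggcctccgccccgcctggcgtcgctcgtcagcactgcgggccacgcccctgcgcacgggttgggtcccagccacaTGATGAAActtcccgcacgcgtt

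Across the 34 genes, no level differed between Gα12 KO and WT livers past the limma test, which called 0 of 23132 probes (0.0% of genes, adjusted p under 0.05). At an unadjusted p below 0.05, 1 gene was lower in Gα12 KO livers (Atf5) and 3 were higher (Pdia4, Sdf2l1 and Dnajb9), against 16.6% of all 12297 genes lower and 3.98% higher. The difference was below 0 for 24 genes and above 0 for 10, with a median of -0.32, against a median of -0.49 over all genes, of which 72.3% were below 0. These signs depended on the scaling of the arrays: with quantile normalization 13 of the 34 were below 0, against 63.1% of all genes, and with normexp and quantile normalization 12. Groups did not overlap for 2 genes, Pdia4 and Dnajb9, both higher in Gα12 KO livers, and for no gene were all Gα12 KO livers below all WT livers. Over all genes, groups did not overlap for 25.5%, with Gα12 KO above WT for 4.42% and below for 21.1%. Against WT replicates 1 and 2 the median of the 34 genes was -0.71, beside -0.77 for all genes, and against WT replicate 3 it was 0.15, beside -0.03 for all genes. WT replicate 3 was nearer to the Gα12 KO mean than to the mean of the other WT livers for 31 of the 34 genes, against 84.4% of all genes. WT livers varied more than Gα12 KO livers for 31 of the 34 genes, with a median SD of 0.23 in Gα12 KO livers and 0.82 in WT livers, as for 85.5% of all genes (median SD 0.19 and 0.65).

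**Figure D1:**
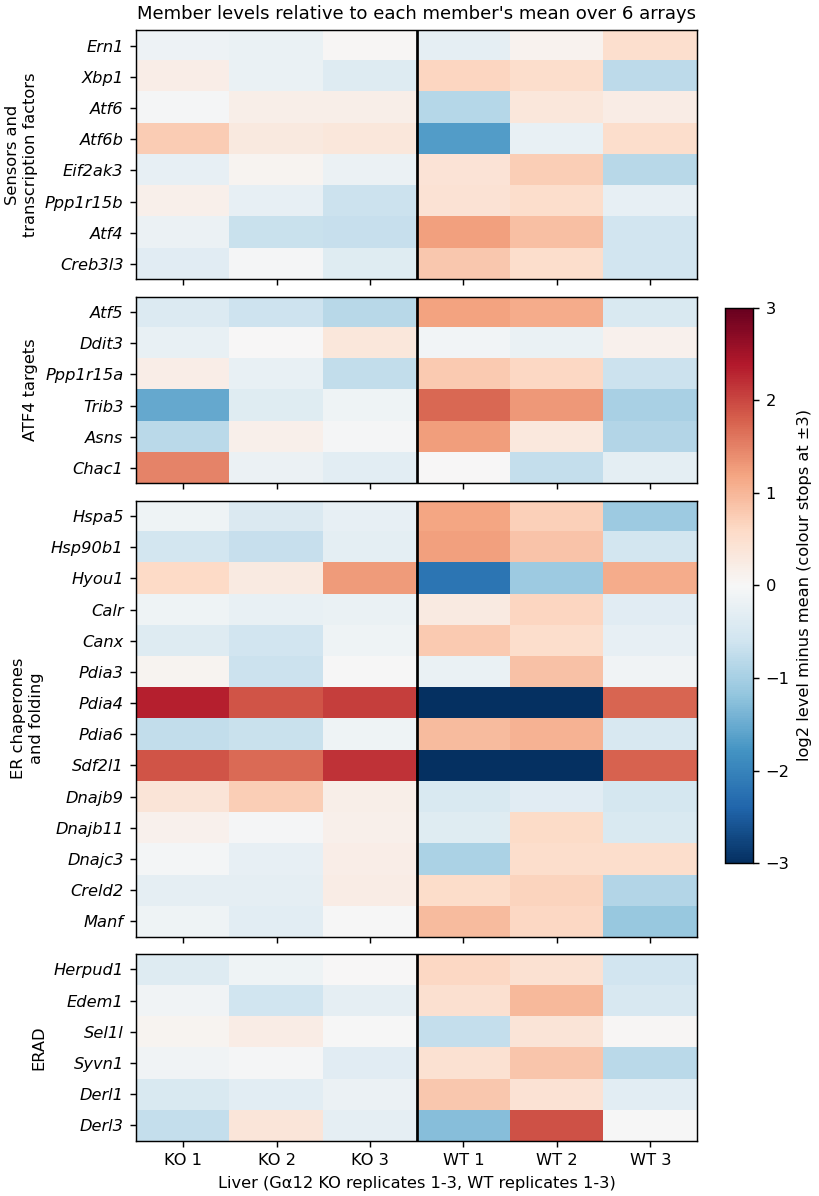
Levels of the 34 genes in 6 livers, as log2 level minus the gene's own mean over the 6 arrays, with Gα12 KO replicates 1 to 3 on the left of the black line and WT replicates 1 to 3 on the right, in 4 blocks by role. WT replicates 1 and 2 are both above all Gα12 KO livers for 20 of the 34 genes (61.5% of all genes) and both below for 5 (17.3% of all genes), Pdia4, Sdf2l1, Hyou1, Atf6b and Dnajb9, and WT replicate 3 is nearer to the Gα12 KO mean than to the mean of the other WT livers for 31 of the 34 genes.

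Among the chaperones and folding enzymes, Hspa5, Hsp90b1, Pdia6, Canx and Calr had higher levels in WT replicates 1 and 2 than in any other liver. Hspa5 encodes BiP, the Hsp70 of the ER, which binds nascent chains and holds the sensors inactive. Its level was 7.19, 6.89 and 7.08 in Gα12 KO livers, against 8.48, 8.02 and 6.22 in WT livers. The 3 Gα12 KO livers lay close together, below WT replicates 1 and 2 and above WT replicate 3. The means were 7.05 ± 0.15 in Gα12 KO livers and 7.57 ± 1.20 in WT livers (SD, n = 3 each), and the difference was -0.52 (SE 0.58, limma adjusted p = 0.531). Hsp90b1 encodes GRP94, the Hsp90 of the ER, and had 7.03, 6.88 and 7.27 in Gα12 KO livers, against 8.80, 8.43 and 7.02 in WT livers. Here WT replicate 3 lay among the Gα12 KO livers, while the other WT livers were above all of them, and the difference was -1.02 (SE 0.49, limma adjusted p = 0.245). Pdia6, a protein disulfide isomerase gene, had 6.92, 7.0 and 7.55 in Gα12 KO livers, against 8.63, 8.72 and 7.19 in WT livers with its brighter probe, again with WT replicate 3 among the Gα12 KO livers. The difference was -1.02 (SE 0.48, limma adjusted p = 0.241). The lectin chaperone gene Canx, whose product holds newly made glycoproteins, had means of 5.09 ± 0.22 in Gα12 KO livers and 5.82 ± 0.54 in WT livers (SD, n = 3 each), and its soluble relative Calr had means of 6.32 ± 0.050 in Gα12 KO livers and 6.69 ± 0.50 in WT livers (SD, n = 3 each). Their differences of -0.73 and -0.37 did not pass the test, nor did that of Pdia3, the isomerase that works with both (-0.38).

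Some chaperone genes ran the other way, with far lower signals in WT replicates 1 and 2 than in the other 4 livers. Pdia4, which encodes the isomerase ERp72, had 3.76, 3.34 and 3.52 in Gα12 KO livers, against -2.83, -2.32 and 3.19 in WT livers. All Gα12 KO livers were above all WT livers, but the gap to WT replicate 3 was small. The difference was 4.19 (SE 1.43, limma adjusted p = 0.235), with a 95% interval of 0.88 to 7.51. It was 6.12 against WT replicates 1 and 2 and 0.35 against WT replicate 3. Sdf2l1, whose product joins BiP complexes and is induced by ER stress, shared that division, with 3.44, 3.25 and 3.73 in Gα12 KO livers, against -2.50, -1.90 and 3.32 in WT livers. WT replicate 3 lay among the Gα12 KO livers, so that the difference of 3.83 (SE 1.37, limma adjusted p = 0.235) rested on WT replicates 1 and 2 (5.68 against these, 0.15 against WT replicate 3). Hyou1, which encodes GRP170, a nucleotide exchange factor of BiP, was dim, with -2.33, -2.66 and -1.65 in Gα12 KO livers, against -5.14, -4.02 and -1.82 in WT livers, and was well above background in 2 Gα12 KO livers and 1 WT liver. Sdf2l1 and Hyou1 were singled out after their values were seen. The arrays on which these genes were low are those with the Gapdh probe spreads of 9.58 and 7.79 log2 units. With that spread as a covariate the differences were 1.44 for Pdia4, 1.16 for Sdf2l1 and -0.032 for Hyou1. Limma called none of them with or without it. The spread was high on WT replicates 1 and 2 only, so the covariate largely marks those arrays. Its effect cannot be told apart from other differences of those arrays, and the cause was not tested.

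Dnajb9 had a higher level in Gα12 KO livers than in each WT liver, by 0.89, 0.78 and 0.96 against WT replicates 1, 2 and 3. Of the 34 genes, 8 kept one sign against each WT liver, 4 lower (Atf5, Canx, Pdia6 and Derl1) and 4 higher (Pdia4, Sdf2l1, Chac1 and Dnajb9), named after their values were seen. Over all genes 48.8% did so, 37.2% lower and 11.6% higher. Dnajb9 encodes ERdj4, a J-domain partner of BiP that XBP1 induces and that brings BiP back to IRE1α. Its brighter probe had 3.13, 3.48 and 2.90 in Gα12 KO livers, against 2.28, 2.40 and 2.21 in WT livers. All 3 Gα12 KO livers were above all 3 WT livers, and the WT livers lay within 0.18 log2 units of each other. The means were 3.17 ± 0.29 in Gα12 KO livers and 2.30 ± 0.092 in WT livers (SD, n = 3 each), and the difference was 0.88 (SE 0.31, limma adjusted p = 0.235), with a 95% interval of 0.15 to 1.6. It was 0.83 against WT replicates 1 and 2 and 0.96 against WT replicate 3. The dimmer probe had -0.22, -0.10 and -0.58 in Gα12 KO livers, against -3.22, -1.80 and -1.01 in WT livers. There too the groups did not overlap, with a difference of 1.71 (SE 0.56, limma adjusted p = 0.235). That probe was well above background in 3 Gα12 KO livers and 2 WT livers. Neither probe passed the test over all probes, and the unadjusted limma p of the brighter one was 0.0243.

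The remaining chaperone genes had differences between -0.29 and 0.17. Dnajb11, Dnajc3, Creld2 and Manf encode a pair of J-domain partners of BiP and a pair of small proteins that ER stress releases from the cell. Manf averaged 4.57 ± 0.16 in Gα12 KO livers and 4.86 ± 1.13 in WT livers (SD, n = 3 each), with a difference of -0.94 against WT replicates 1 and 2 and 1.0 against WT replicate 3. Creld2 divided in the same way (-0.72 and 0.78). Dnajc3 did not, with 0.91, -0.56 and -0.56 against WT replicates 1, 2 and 3. Of the 14 chaperone genes, WT replicate 3 was below all Gα12 KO livers for 7, among them Hspa5, Manf and Creld2, and above all of them for 1, against 26.8% and 32.6% of all genes. Both of WT replicates 1 and 2 were above all Gα12 KO livers for 7 and below all of them for 4, against 61.5% and 17.3% of all genes. The median difference was -0.26 for the 14, with 9 below 0, against 72.3% of all genes, and 0 passed the limma test. The 7 chaperone genes with an ERSE match had differences of -1.02 to -0.07. The 5 with a promoter entry and no match had -0.38 to 4.19. The highest of these, Pdia4 and Sdf2l1, were at 0.35 and 0.15 against WT replicate 3. With quantile normalization 4 of the 7 with a match were above 0, as were 5 of the 5 without. No test was made between these sets.

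**Figure D2:**
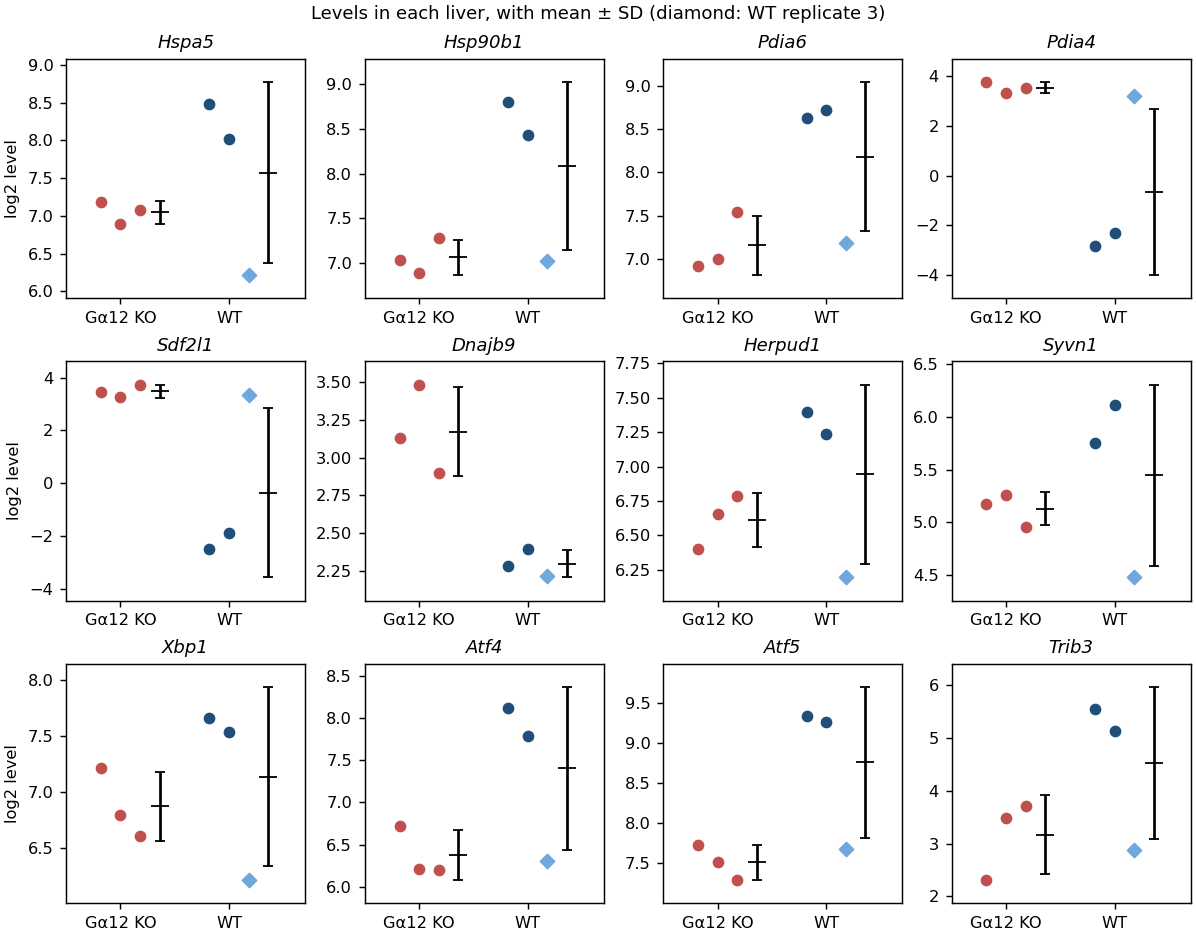
Log2 levels of 12 of the genes in each liver, with 3 Gα12 KO livers on the left and 3 WT livers on the right of each panel, WT replicate 3 as a diamond, and bars for mean ± SD (n = 3 each). The vertical scale differs between panels. Pdia4 and Sdf2l1 are low in WT replicates 1 and 2 only, and Dnajb9 is lower in all 3 WT livers.

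Among the ERAD genes, Herpud1, Syvn1, Derl1 and Edem1 had higher levels in WT replicates 1 and 2 than in any Gα12 KO liver. These are 4 of the 6 (66.7%), against 61.5% of all genes. Herpud1, whose product assembles the HRD1 complex at the ER membrane, had 6.40, 6.66 and 6.79 in Gα12 KO livers, against 7.40, 7.24 and 6.20 in WT livers. Gα12 KO livers lay between WT replicate 3 below and the other WT livers above. The difference was -0.33 (SE 0.40, limma adjusted p = 0.571). Syvn1 encodes HRD1, the ubiquitin ligase of that complex, and had 5.17, 5.26 and 4.96 in Gα12 KO livers, against 5.75, 6.11 and 4.48 in WT livers, in the same order of livers, with a difference of -0.32 (SE 0.46, limma adjusted p = 0.636). Derl1, a derlin gene for the channel that exports substrates, had 4.57, 4.71 and 4.84 in Gα12 KO livers, against 5.82, 5.46 and 4.71 in WT livers with its brighter probe. WT replicate 3 lay among the Gα12 KO livers, and the difference was -0.63 (SE 0.37, limma adjusted p = 0.294). Edem1, a lectin-like factor that marks misfolded glycoproteins for removal, averaged 3.65 ± 0.26 in Gα12 KO livers and 4.31 ± 0.74 in WT livers (SD, n = 3 each). Sel1l, the partner of HRD1, differed by 0.20, with a 95% interval of -0.66 to 1.07. Derl3, a derlin gene that is strongly induced by ER stress, had -0.50, 0.59 and -0.038 in Gα12 KO livers, against -1.06, 2.14 and 0.21 in WT livers, with the lowest and the highest value both in WT livers (singled out after its values were seen). Of the 6 ERAD genes, 5 had differences below 0, against 72.3% of all genes, and 0 passed the limma test. The median was -0.37, and it was -0.75 against WT replicates 1 and 2 and 0.11 against WT replicate 3.

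None of the 8 sensors and transcription factors had Gα12 KO livers all above or all below the WT livers. By comparison, the groups did not overlap for 25.5% of all genes. Xbp1, whose mRNA IRE1α splices into an active form, had 7.21, 6.79 and 6.60 in Gα12 KO livers, against 7.66, 7.53 and 6.21 in WT livers, with a difference of -0.27 (SE 0.46, limma adjusted p = 0.688). The spliced and unspliced forms are not told apart here. Creb3l3 encodes CREBH, a liver factor cleaved like ATF6 that acts on lipid genes in fasting, and had 7.38, 7.66 and 7.33 in Gα12 KO livers, against 8.51, 8.23 and 7.14 in WT livers. The difference was -0.50 (SE 0.42, limma adjusted p = 0.420), and the Gα12 KO livers again lay between WT replicate 3 and the other WT livers. Atf4, the factor translated when eIF2α is phosphorylated, had 6.72, 6.22 and 6.20 in Gα12 KO livers, against 8.12, 7.79 and 6.31 in WT livers with its brighter probe, where WT replicate 3 lay among the Gα12 KO livers, and the difference was -1.02 (SE 0.51, limma adjusted p = 0.250). Its dimmer probe had 1.31, 0.99 and 1.15 in Gα12 KO livers, against -1.06, -0.20 and 1.76 in WT livers, in the opposite order, with a difference of 0.98 (SE 0.67, limma adjusted p = 0.337). No direction can therefore be given for Atf4. Among the sensors, Ern1 (IRE1α) differed by -0.22, Atf6 by 0.21 and Eif2ak3 (PERK) by -0.22, with 95% intervals of -0.99 to 0.55, -0.72 to 1.13 and -1.28 to 0.84. Atf6b, the relative of Atf6, averaged -0.63 ± 0.26 in Gα12 KO livers and -1.55 ± 1.11 in WT livers (SD, n = 3 each), and WT replicates 1 and 2 were below all Gα12 KO livers. Ppp1r15b, which encodes the constitutive partner of the eIF2α phosphatase, differed by -0.49, but by 0.0084 against WT replicate 3. Of the 8 genes 6 were below 0, against 72.3% of all genes, and 0 were past the limma test. Their median was -0.24, and it was -0.71 against WT replicates 1 and 2 and 0.04 against WT replicate 3.

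ATF4 targets held the only gene of the 34 with a lower level at an unadjusted p below 0.05, Atf5. That is 1 of the 6 targets (16.7%), against 16.6% of all genes. Atf5, a stress factor of the ATF4 family that is abundant in liver, had 7.73, 7.52 and 7.29 in Gα12 KO livers, against 9.34, 9.26 and 7.67 in WT livers. WT replicate 3 lay among the Gα12 KO livers, and the difference was -1.24 (SE 0.49, limma adjusted p = 0.235), or -1.78 against WT replicates 1 and 2 and -0.16 against WT replicate 3. Trib3, a pseudokinase gene that restrains AKT and ATF4, had 2.31, 3.49 and 3.71 in Gα12 KO livers, against 5.56, 5.14 and 2.88 in WT livers. Gα12 KO replicate 1 and WT replicate 3 were the low livers, and the difference was -1.36 (SE 0.74, limma adjusted p = 0.268). Asns, the asparagine synthetase gene, had 4.09, 5.03 and 4.85 in Gα12 KO livers, against 6.14, 5.20 and 4.02 in WT livers. WT replicate 3 was just below Gα12 KO replicate 1, and the difference was -0.46 (SE 0.57, limma adjusted p = 0.573). Chac1, which encodes a glutathione-degrading enzyme, had 3.13, 1.46 and 1.33 in Gα12 KO livers, against 1.66, 0.94 and 1.36 in WT livers, singled out after its values were seen because Gα12 KO replicate 1 stood above all other livers. Ddit3, the gene of the pro-apoptotic factor CHOP, varied little, with -0.88 ± 0.28 in Gα12 KO livers and -0.98 ± 0.17 in WT livers (SD, n = 3 each), and the 95% interval of its difference was -0.64 to 0.83. Ppp1r15a (GADD34), the inducible partner of the eIF2α phosphatase, averaged 2.26 ± 0.47 in Gα12 KO livers and 2.75 ± 0.78 in WT livers (SD, n = 3 each). Within the Gα12 KO group these genes had a median SD of 0.49, against 0.22 for the chaperones, 0.18 for ERAD and 0.22 for the sensors. Gα12 KO replicate 1 was the lowest of its group for Trib3, Asns and Ddit3 and the highest for Chac1, Ppp1r15a and Atf5. The median difference of the 6 genes was -0.48, with 4 below 0 and 0 past the limma test. Of all genes 72.3% were below 0, with a median of -0.49.

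**Figure D3:**
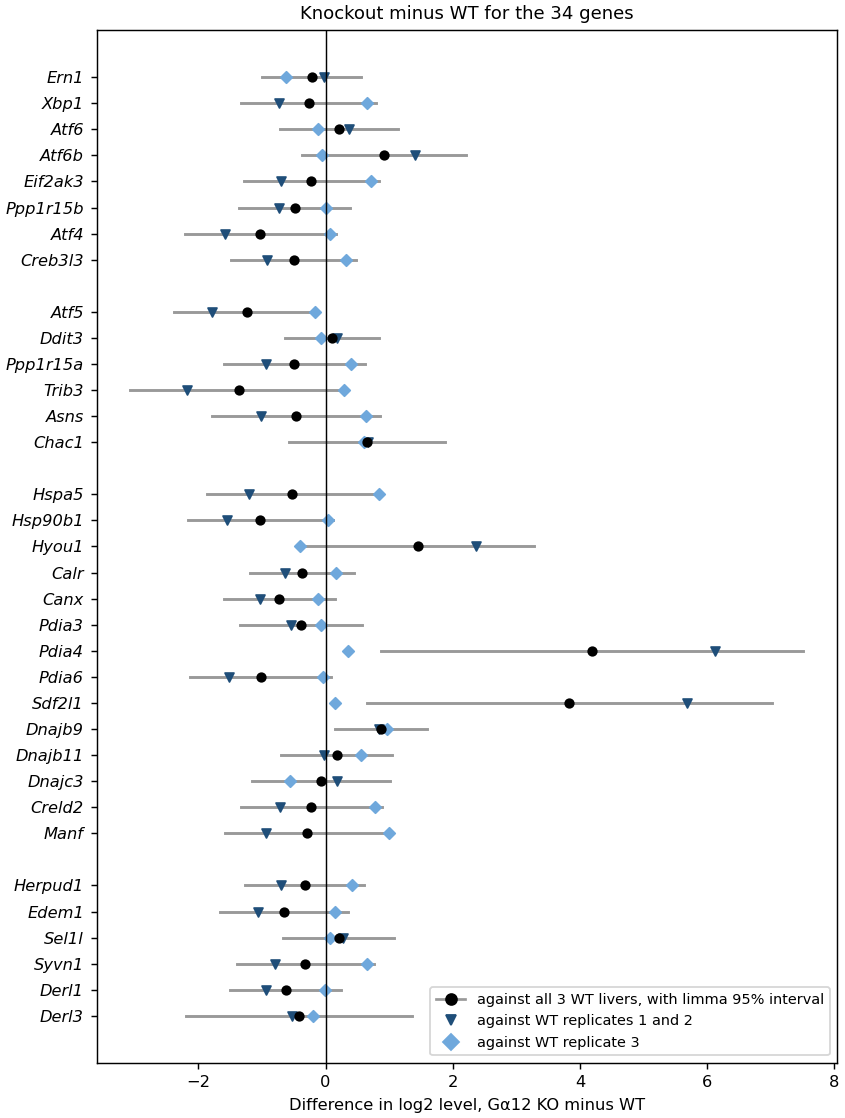
Difference in log2 level, Gα12 KO minus WT, for the 34 genes in 4 blocks by role: black dots with limma 95% intervals against all 3 WT livers, triangles against WT replicates 1 and 2, and diamonds against WT replicate 3. Triangles and diamonds lie far apart for most genes, whereas for Dnajb9 they lie at 0.83 and 0.96.

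The medians of the 4 roles are given here against each WT liver, and no test was made between roles. Against WT replicate 1 the median difference was -0.22 for chaperones, -0.70 for ERAD, -1.25 for ATF4 targets and -0.61 for sensors, against -0.82 over all genes. Against WT replicate 2 the medians were -0.78, -0.87, -0.70 and -0.72 in the same order, against -0.71 over all genes. Against WT replicate 3 they were 0.16, 0.11, 0.35 and 0.04, against -0.03. So the sign of every role's median depended on which WT liver was used. Over all genes the median itself moved with the scaling, to -0.36 with scaling to each array's median and -0.55 in the deposited matrix. It was -0.21 with quantile normalization and -0.17 with normexp and quantile normalization. Relative to the median over all genes, the chaperones lay at 0.24 in the main setting and at 0.24 to 0.44 with those scalings. ERAD lay at 0.12 and 0.12 to 0.23, ATF4 targets at 0.02 and 0.02 to 0.16, and sensors at 0.25 and 0.19 to 0.25. Without WT replicate 3 the chaperones lay at 0.18, ERAD at 0.02, ATF4 targets at -0.21 and sensors at 0.06. Without WT replicate 3, limma called 22 of the 34 genes, 17 lower (Atf5 and Hspa5 among them) and 5 higher in Gα12 KO livers, against 50.6% and 11.5% of all genes called in those directions, or 62.2% in either. With WT replicate 3 as the only WT liver it called 0 of the 34 and 0.0% of all genes. At an unadjusted p below 0.05 the counts were 19 lower and 5 higher without WT replicate 3, against 54.8% and 13.4% of all genes, and 1 lower and 5 higher with it alone, against 4.06% and 2.72%. The fit with WT replicate 3 alone has 1 WT array, which is assumed to vary like the Gα12 KO arrays.

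**Figure D4:**
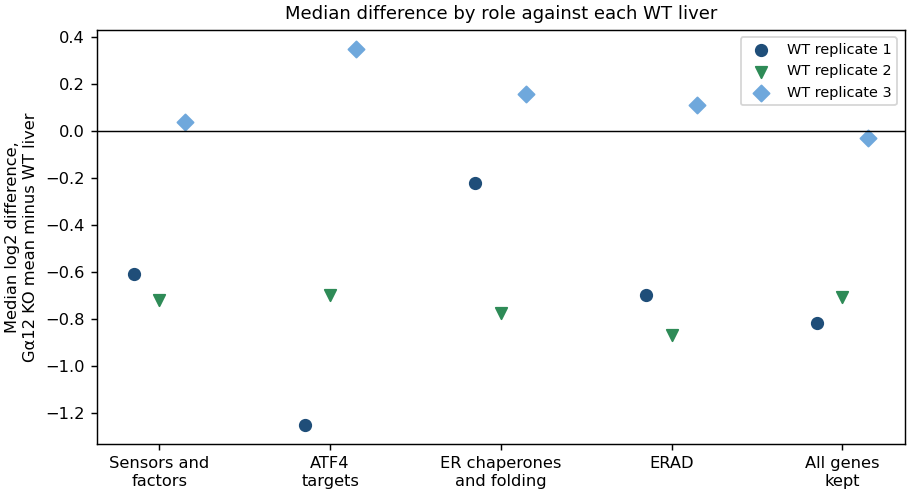
Median log2 difference over the genes of each role, Gα12 KO mean minus each WT liver, beside the median over all 12297 genes kept (right). Circles (WT replicate 1) and triangles (WT replicate 2) lie below 0 and diamonds (WT replicate 3) above 0 in all 4 roles.

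Of the 5 genes with 2 probes, 3 had probes with the same sign and 2 did not. Both probes of Pdia6 were lower in Gα12 KO livers (-1.02 and -0.87), as were those of Derl1 (-0.63 and -1.02), and both of Dnajb9 were higher. The probes of Atf4 differed in sign, as described, and so did those of Dnajb11, at 0.17 and -0.92. The Dnajb11 probes carry different RefSeq transcript accessions, while each other pair carries the same. Against WT replicate 3 the Dnajb11 probes were at 0.56 and 0.52. For Atf4 they were at 0.073 and -0.61.

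**Figure D5:**
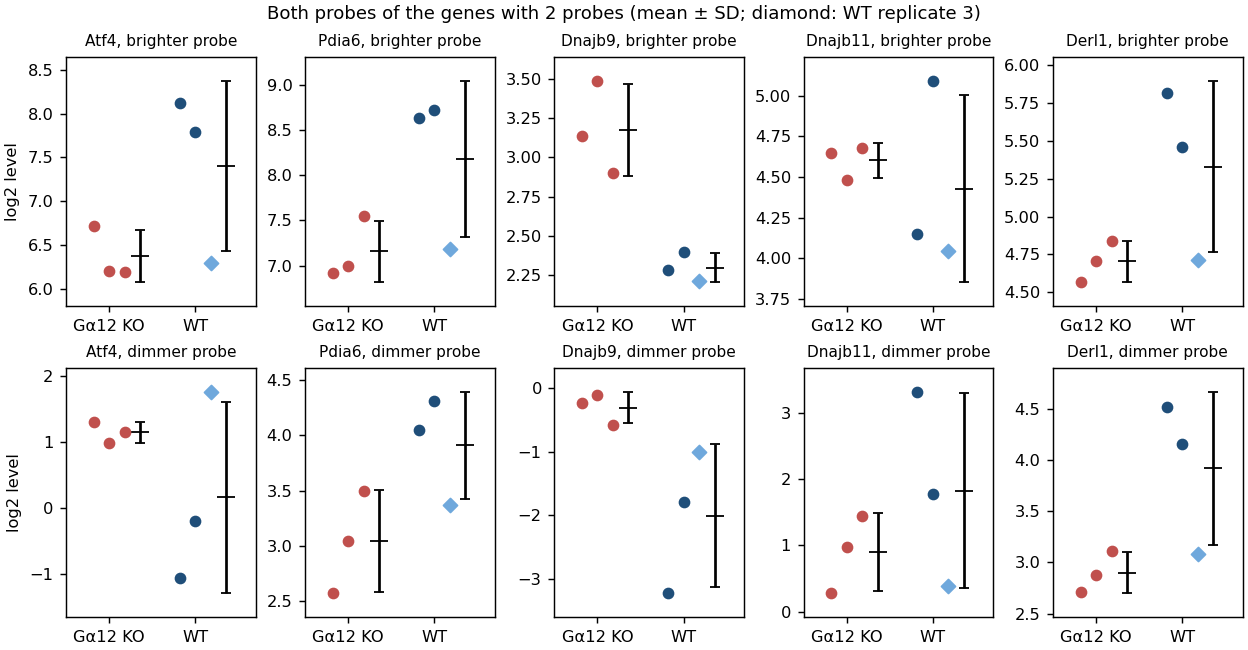
Log2 levels from both probes of the 5 genes with 2 probes, in Gα12 KO livers (left of each panel) and WT livers (right, WT replicate 3 as a diamond), with mean ± SD (n = 3 each). The vertical scale differs between panels; the probes of Atf4 order the livers in opposite ways, and those of Dnajb9 both place Gα12 KO livers above WT livers.

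Other genes of the same pathways, from lists of 133 genes that are not among the 34, were taken next: 121 were measured and 0 passed the limma test. At an unadjusted p below 0.05, 11 were lower and 5 higher in Gα12 KO livers, and the median difference was -0.47. These are 9.09% and 4.13% of the 121, against 16.6% and 3.98% of all genes, whose median was -0.49. By group, 2 of 35 other folding and translocation genes were lower and 3 higher, 2 of 22 other ERAD genes were lower and 0 higher, and 4 of 32 other ATF4 targets were lower and 1 higher. Of 26 other sensors and regulators 3 were lower and 1 higher, and 0 of 6 targets of IRE1α-dependent mRNA decay were lower or higher. The genes with the lowest p below 0 were Ngly1, which strips glycans from misfolded proteins, at -1.43 (SE 0.45, limma adjusted p = 0.235), the eIF2α kinase gene Eif2ak2 (PKR) at -1.42 (SE 0.46, limma adjusted p = 0.235) and the ERAD lectin gene Erlec1 at -1.73 (SE 0.59, limma adjusted p = 0.235). Those above 0 were Creb3l2, a relative of Creb3l3, at 2.54 (SE 0.48, limma adjusted p = 0.218), the isomerase gene Pdia5 at 1.44 (SE 0.50, limma adjusted p = 0.235) and Cebpb, a C/EBP factor that partners ATF4, at 0.95 (SE 0.35, limma adjusted p = 0.235). Cebpb had 5.91, 6.03 and 5.88 in Gα12 KO livers, against 4.44, 5.32 and 5.21 in WT livers, with all Gα12 KO livers above all WT livers. Its difference was 1.05 against WT replicates 1 and 2 and 0.73 against WT replicate 3. The other differences against WT replicate 3 were -0.52 for Ngly1, -0.47 for Eif2ak2, -0.61 for Erlec1, 1.56 for Creb3l2 and 0.35 for Pdia5. Creb3l2 had -0.79, -0.41 and -1.13 in Gα12 KO livers, against -3.76, -3.86 and -2.33 in WT livers, and was well above background in only 1 WT liver. The groups did not overlap for 21 of the 121 genes, against the 25.5% of all genes given above.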

How the data were processed

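The authors' scanner output came from Agilent Feature Extraction 10.7.3.1, per the file headers, and gives a processed, linear intensity for each spot. The deposited series matrix holds log2 values, which correlated with the log2 of that intensity at r of at least 0.9988; its scaling is not stated in the labels or headers, and its column medians were 4.32, 4.44 and 4.52 for Gα12 KO and 4.41, 4.17 and 4.70 for WT replicates 1 to 3.

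Control and outlier-marked spots were left out, the spots of a probe averaged, and a probe was kept if it was well above background on 3 or more of the 6 arrays. Genes were named by unversioned accession from a RefSeq table (GRCm38.p6), and each gene took the values of its brightest kept probe (highest mean). Well above background were 20953 to 22585 probes on Gα12 KO arrays and 22951 to 28752 on WT arrays. Gα12 KO minus WT was fitted with limma 3.58.1 (R 4.3.3) over all kept probes with Benjamini-Hochberg adjustment. Values are given on every array for genes whose groups did not overlap and for the 3 with the highest mean signal in each role. The genes, lists and rules were chosen with earlier results of these data known. The alternatives tried were other scalings, filters, probe rules and spread estimates, leaving out arrays, a replicate block and the Gapdh probe spread as a covariate.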

Additional observations from a re-analysis of the deposited data

How the results depend on the processing

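The count of 0 of the 34 genes past limma's adjusted threshold held in all alternatives but 1: leaving out 1 array in turn gave 0 to 22, and the 22 came without WT replicate 3. The count over all probes was 2 with normexp and quantile normalization, 2 with the filter on all 6 arrays and 7 with the mean over probes, and 0 to 13123 with 1 array left out. Other pathway genes called ranged from 0 to 77 likewise. Genes lower at an unadjusted p numbered 0 to 19 and genes higher 1 to 5 with 1 array left out, the high ends without WT replicate 3. Higher genes numbered 5 with WT replicate 3 as the only WT liver and 1 with the spread of the Gapdh probes as covariate. The median of the sensors was -0.71 to -0.15 with 1 array left out, 0.020 with normexp and quantile normalization, 0.013 with quantile normalization, 0.041 with WT replicate 3 alone and -0.037 with the covariate, against -0.24 in the main setting. The median of the ATF4 targets (-0.48) was -0.97 to -0.088 with 1 array left out, the ends without WT replicates 3 and 1, 0.35 with WT replicate 3 alone and 0.083 with the covariate. That of the chaperones (-0.26) was -0.59 to 0.012 with 1 array left out, above 0 without WT replicate 2, and was also above 0 with normexp and quantile normalization (0.22), quantile normalization (0.24), the covariate (0.14) and WT replicate 3 alone (0.16). That of ERAD (-0.37) was -0.75 to -0.082 with 1 array left out, the ends without WT replicates 3 and 2, and was above 0 with quantile normalization (0.020) and WT replicate 3 alone (0.11). The cause of these shifts was not tested.

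Differences of single genes, none past the test in the main setting, changed sign as follows. With 1 array left out, they ranged over Atf6 -0.17 to 0.42, Eif2ak3 -0.69 to 0.095, Ddit3 -0.048 to 0.23, Asns -1.01 to 0.050, Dnajb11 -0.017 to 0.50, Dnajc3 -0.56 to 0.18, Creld2 -0.72 to 0.059, Manf -0.94 to 0.11, Sel1l -0.10 to 0.45, Syvn1 -0.80 to 0.017 and Derl3 -1.16 to 0.44. With WT replicate 3 alone they were Xbp1 0.65, Atf6 -0.12, Atf6b -0.058, Eif2ak3 0.72, Ppp1r15b 0.0084, Atf4 0.073, Creb3l3 0.32, Ddit3 -0.077, Ppp1r15a 0.41, Trib3 0.29, Asns 0.64, Hspa5 0.83, Hsp90b1 0.040, Hyou1 -0.40, Calr 0.16, Creld2 0.78, Manf 1.0, Herpud1 0.42, Edem1 0.14 and Syvn1 0.65. With the covariate they were Xbp1 0.41, Atf6 -0.18, Eif2ak3 0.40, Creb3l3 0.12, Ddit3 -0.027, Ppp1r15a 0.19, Asns 0.42, Hspa5 0.48, Hyou1 -0.032, Creld2 0.43, Manf 0.64, Herpud1 0.20, Sel1l -0.026 and Syvn1 0.32. With quantile normalization they were Xbp1 0.25, Creb3l3 0.039, Asns 0.052, Hspa5 0.027, Calr 0.15, Pdia3 0.098, Dnajc3 0.32, Creld2 0.27, Manf 0.21, Herpud1 0.21 and Syvn1 0.17, and with normexp added Xbp1 0.30, Eif2ak3 0.0085, Creb3l3 0.032, Asns 0.049, Hspa5 0.017, Calr 0.17, Pdia3 0.066, Dnajc3 0.36, Creld2 0.26, Manf 0.14, Herpud1 0.12 and Syvn1 0.21. Single changes were Dnajc3 0.069 with median scaling, Creld2 0.025 in the deposited matrix and Dnajb11 -0.38 with the mean over probes.

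Same-numbered deviations from the group means correlated at -0.13, 0.01 and -0.04, against -0.20 to 0.22 for differently numbered ones. With 3 arrays per group this cannot decide whether replicate numbers pair the livers. The replicate number matched the slide column in both groups. With the replicate block, limma called 0 of 34 genes and 0 probes, and no gene changed sign.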
